A study of Tursiops truncatus with 17 samples.

Results

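The transcripts of 10 glycolytic enzymes were followed in the cerebral cortex of 17 bottlenose dolphins (Tursiops truncatus), 9 sampled in a bloom season and 8 in a non-bloom season. The 10 genes were HK1, PFKP, ALDOA, ALDOC, TPI1, PGK1, ENO1, ENO2, PKM and LDHA, out of 21265 genes in the files. They were chosen by name, and each name matched exactly 1 row. All animals were labelled wild type, and the tissue was frozen archived necropsy cortex with 1 messenger RNA library per dolphin. The labels use bloom and non-bloom without saying of what, and they give no age, sex, date or sequencing batch. Season and any batch aligned with it cannot be told apart. Dolphins are numbered here within their season in the order of deposition.

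Glycolysis splits glucose into pyruvate in the cytosol, yielding ATP and NADH without oxygen. Brain tissue burns mostly glucose, and several steps have isozymes that differ between cell types. ENO2 encodes neuron-specific enolase and ALDOC encodes aldolase C, which is enriched in astrocytes, while ENO1 and ALDOA encode the widely expressed forms of the same enzymes. Lactate dehydrogenase A favours the making of lactate from pyruvate. HK1, PFKP and PKM encode enzymes of the steps regarded as irreversible.

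In the bloom season 8 of the 10 transcripts had lower group means on the log2 scale, and none passed the test across all genes. The largest negative differences were those of ENO2, HK1, PFKP and PKM. ALDOC was higher on average, and ENO1 and LDHA were near their non-bloom means with a much wider spread among bloom dolphins. Much of that spread lay in 3 bloom libraries, bloom 5, 6 and 9, in which ENO2 was at its lowest and ALDOC at its highest.

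Levels are the deposited normalised values, which are CPM (reads as a proportion of the library's total) scaled by TMM, the trimmed-mean normalisation of edgeR. Log2 changes compare bloom with non-bloom on the log2(value + 1) scale. Levels of different genes are not compared with each other, since the values are not per transcript length. The libraries held 7680050 to 15635292 reads. The genome of the mitochondrion took 77.2% of the reads in bloom 9, 57.0% in bloom 5 and 33.5% in bloom 6, against 1.47% to 22.1% in the other 14 libraries. The fewest reads behind any value of the 10 enzymes were 156, for LDHA in bloom 9, and the most were 38162, for ALDOA. By limma with Benjamini-Hochberg adjustment 9.16% of the 13548 genes tested passed the 0.05 threshold, with 4.47% higher in bloom and 4.69% lower, and their median log2 change was -0.0034. None of the 10 enzymes passed. At an unadjusted p under 0.05 by limma there were 4 lower (HK1, PFKP, ENO2 and PKM) and 0 higher, against 19.1% of all genes lower and 16.4% higher. edgeR on the recovered reads also called 0 of the 10, where 8.63% of all genes passed, with 5 of the 10 lower at an unadjusted p under 0.05, against 15.5% of all genes. DESeq2 and limma-voom with quality weights each called HK1, TPI1, ENO2 and PKM lower, in fits that called 23.4% (DESeq2) and 31.2% (limma-voom) of all genes, and 9.04% and 16.5% of all genes as lower. The median log2 change of the 10 enzymes was -0.28. Without bloom 5, 6 and 9 all 10 log2 changes were negative, with a median of -0.30, and again none passed (limma, 2.34% of all genes passed, median over all genes 0.011). In that fit 4 of the 10 (HK1, PGK1, ENO2 and PKM) had an unadjusted p under 0.05 by limma, against 11% of all genes lower. Below 0 were 50.3% of all genes with every library and 48.5% without those 3. In none of the 10 did the seasons separate completely, a pattern shown by 0.657% of all genes.

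Markers of neurons, oligodendrocytes and astrocytes were present in every library, as cortex should have them, and microglial markers summed to only 0.537 to 32.1 in bloom and 1.91 to 279.8 in non-bloom dolphins. The summed value of the 9 matched of 10 listed oligodendrocyte markers was 18066, 19085 and 14075 in bloom 5, 6 and 9 and 4262 to 8567 in the other bloom dolphins, against 1647 to 7876 in non-bloom dolphins. None of these 9 was at 0 reads in any library. Erythroid markers were highest among bloom dolphins in the same 3 libraries: the 5 matched of 8 listed summed to 862, 1011 and 2447 in bloom 5, 6 and 9 and 10.3 to 360 in the other bloom dolphins, against 104 to 876 in non-bloom dolphins. SLC4A1 and EPB42 of that list were at 0 reads in bloom 5, 6 and 9. The part of these cell types in the results on the 10 enzymes was not tested.

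**Figure D1:**
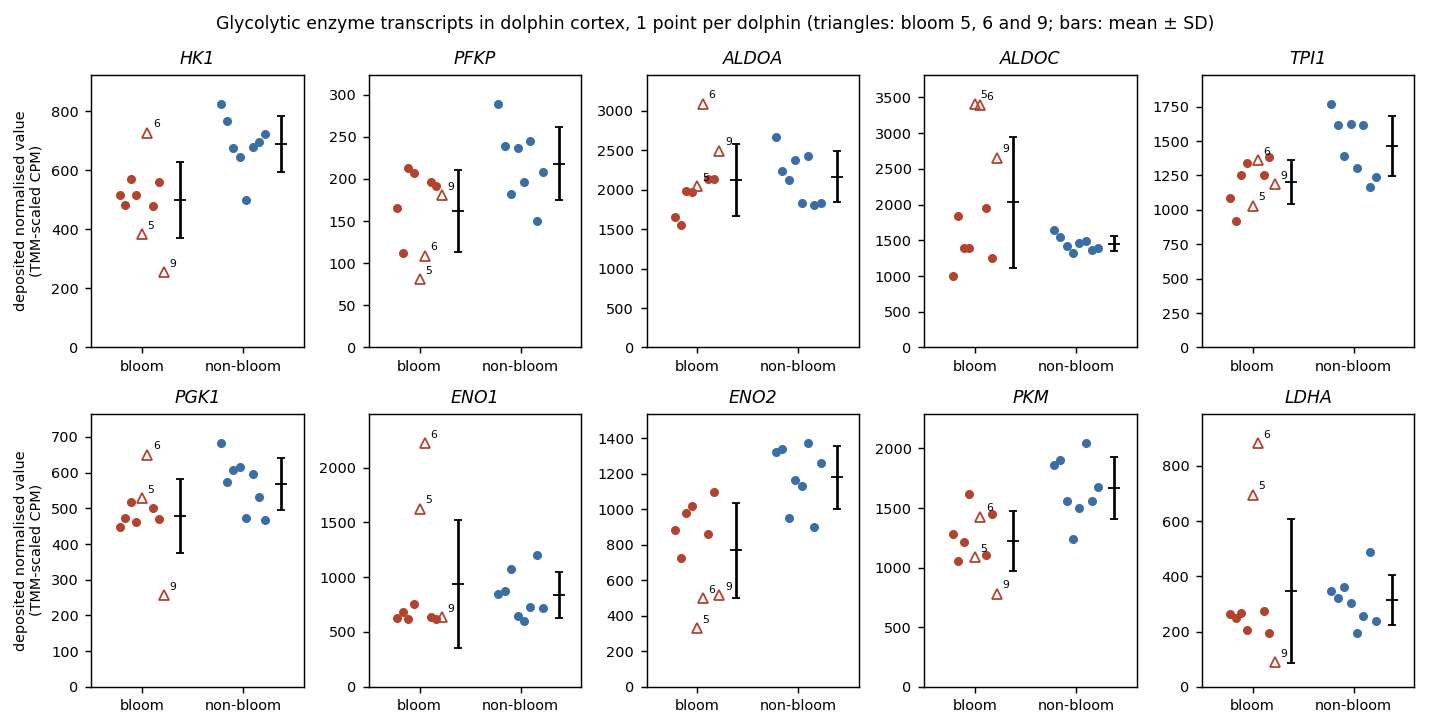
Deposited normalised values (TMM-scaled CPM, linear axis from 0) of the 10 enzymes, 1 point per dolphin, bloom left and non-bloom right; open triangles are bloom 5, 6 and 9, and bars give the mean ± SD. ENO2 of bloom 5, 6 and 9 lies between 330 and 516, under every non-bloom dolphin, and ALDOC of the same dolphins lies between 2657 and 3411, over every non-bloom dolphin.

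The early phosphorylation steps use HK1, the hexokinase that phosphorylates glucose on entry into brain cells, and PFKP, the platelet-type phosphofructokinase, which phosphorylates fructose 6-phosphate. HK1 ran from 255 to 726 in bloom dolphins with a median of 516, against 501 to 825 in non-bloom dolphins with a median of 688. Of 9 bloom dolphins 8 lay under the non-bloom median and 4 under the lowest non-bloom value, and bloom 6 stood highest among the bloom dolphins. The means were 499 ± 129 in bloom (SD, n = 9) and 689 ± 95.1 in non-bloom dolphins (SD, n = 8), a log2 change of -0.50 (SE 0.17, limma adjusted p = 0.0627). Without bloom 5, 6 and 9 the log2 change of HK1 was -0.39 (SE 0.11, limma adjusted p = 0.0674). PFKP ran from 81.0 to 213 in bloom dolphins with a median of 181, against 150 to 289 in non-bloom dolphins with a median of 222. All 9 bloom dolphins lay under the non-bloom median of PFKP and 3 of them under its lowest non-bloom value, namely bloom 2, 5 and 6. The log2 change of PFKP was -0.47 (SE 0.20, limma adjusted p = 0.0977), and -0.28 (SE 0.16, limma adjusted p = 0.317) without bloom 5, 6 and 9. HK1 lies on GeneScaffold_1102 from 219926 to 308385 and PFKP on GeneScaffold_212 from 219192 to 282366, as the files give them. None of the sources used here names the genome build.

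ALDOA, the aldolase that splits fructose 1,6-bisphosphate into trioses, differed little in mean. It ran from 1552 to 3089 in bloom dolphins with a median of 2047, against 1803 to 2668 in non-bloom dolphins with a median of 2186. The groups overlapped almost wholly, with the highest value in bloom 6 and the lowest in bloom 2. Its log2 change was -0.044 (SE 0.17, limma adjusted p = 0.869), with a 95% interval from -0.40 to 0.31. TPI1, triosephosphate isomerase, which interconverts the 2 trioses, ran from 918 to 1386 in bloom dolphins with a median of 1253, against 1164 to 1771 in non-bloom dolphins with a median of 1502. Every bloom dolphin lay under the non-bloom median of TPI1, and 3 lay under its lowest non-bloom value. The log2 change of TPI1 was -0.28 (SE 0.14, limma adjusted p = 0.165), and it was also -0.28 (SE 0.14) without bloom 5, 6 and 9. TPI1 (71385 to 74537) and ENO2 (109629 to 115628) are both placed on GeneScaffold_47, 35091 bases apart.

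PGK1, phosphoglycerate kinase, makes the first ATP of the pathway. It ran from 256 to 651 in bloom dolphins with a median of 472, against 468 to 683 in non-bloom dolphins with a median of 585. Bloom 9 was lowest and bloom 6 highest among the bloom dolphins, and the log2 change was -0.27 (SE 0.16, limma adjusted p = 0.211). That of PGK1 was -0.24 (SE 0.10, limma adjusted p = 0.187) without bloom 5, 6 and 9. PKM, pyruvate kinase, makes the last ATP of the pathway, and its splice forms are not separated in values per gene. It ran from 780 to 1619 in bloom dolphins with a median of 1216.5, against 1239.7 to 2045 in non-bloom dolphins with a median of 1619. Of 9 bloom dolphins 8 lay under the non-bloom median of PKM and 5 under its lowest non-bloom value. Its means were 1225 ± 252 in bloom (SD, n = 9) and 1668 ± 258 in non-bloom dolphins (SD, n = 8), a log2 change of -0.46 (SE 0.17, limma adjusted p = 0.0704). Without bloom 5, 6 and 9 the log2 change of PKM was -0.37 (SE 0.14, limma adjusted p = 0.140).

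ENO1, the enolase found in most cells, and LDHA differed mainly between single dolphins. ENO1 was at 1625 in bloom 5 and 2224 in bloom 6, while the other 7 bloom dolphins lay between 614 and 755. Non-bloom dolphins had 599 to 1199 with a median of 788. Bloom 5 and 6 thus exceeded every non-bloom dolphin, whereas the rest of the bloom group lay under the non-bloom median. The log2 change of ENO1 was 0.021 (SE 0.26, limma adjusted p = 0.960) with all libraries and -0.32 (SE 0.15, limma adjusted p = 0.224) without bloom 5, 6 and 9. LDHA was at 696 in bloom 5 and 883 in bloom 6, at 89.2 in bloom 9, and between 195 and 273 in the other 6 bloom dolphins. Non-bloom dolphins had 193 to 486 of LDHA with a median of 313. Bloom 5 and 6 were thus over, and bloom 9 was under, every non-bloom value. Its log2 change was -0.11 (SE 0.34, limma adjusted p = 0.835), or -0.33 (SE 0.17, limma adjusted p = 0.266) without those 3 libraries. The 2 highest non-bloom dolphins were the same for both genes, non-bloom 7 with 1199 of ENO1 and 486 of LDHA, and non-bloom 3 with 1079 of ENO1 and 362 of LDHA. The spread relative to the mean was 62.2% for ENO1 and 75.3% for LDHA in bloom dolphins, against 25.2% and 28.8% in non-bloom dolphins. Many mammals carry processed pseudogenes of glycolytic genes, and the sources used here do not say how shared reads were counted. In bloom 5 and 6 endothelial markers were also at their highest: the summed value of the 7 matched of 8 listed was 1925 in bloom 5, 2286 in bloom 6 and 149 to 1114 in the other bloom dolphins, against 229 to 759 in non-bloom dolphins. CDH5 was at 0 reads in bloom 9. Non-bloom 5 had the highest endothelial sum (759) and the lowest ENO1 (599) and LDHA (193) of its season. Non-bloom 3 and 7 stood highest of their season in microglial and neutrophil markers. The 7 matched of 10 listed microglial markers summed to 279.8 in non-bloom 3, 193.7 in non-bloom 7 and 1.91 to 88.0 in the other non-bloom dolphins, with none at 0 reads in non-bloom 3 and 7. The 7 listed neutrophil markers, all matched, summed to 0.470 to 19.6 in bloom dolphins, against 239 in non-bloom 7, 105 in non-bloom 3 and 12.4 to 59.7 in the other non-bloom dolphins. The part of these cell types in the values of ENO1 and LDHA was not tested.

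ENO2, the neuronal enolase, had the most negative log2 change of the 10. It ran from 330 in bloom 5 to 1098 in bloom 8 with a median of 861, against 902 to 1371 in non-bloom dolphins with a median of 1212. All 9 bloom dolphins lay under the non-bloom median, and 6 lay under the lowest non-bloom value. The means were 767 ± 266 in bloom (SD, n = 9) and 1179.6 ± 177 in non-bloom dolphins (SD, n = 8), a log2 change of -0.70 (SE 0.22, limma adjusted p = 0.0522). ENO2 passed without bloom 1, 4 or 8, with adjusted p = 0.0350, 0.0348 and 0.0290 (limma). In those fits 21.5%, 17.1% and 19.9% of all genes passed, against 9.16% with every library. Without bloom 5, 6 and 9 its log2 change was -0.35 (SE 0.13, limma adjusted p = 0.146). With the mean log2 level of pan-neuronal markers as a covariate the log2 change of ENO2 was -0.19 (SE 0.16, limma adjusted p = 0.745). In the same fit that of PFKP was -0.030 (SE 0.15, limma adjusted p = 0.959), and that of HK1 was -0.51 (SE 0.20, limma adjusted p = 0.510). That of LDHA was -0.84 (SE 0.28, limma adjusted p = 0.394), the most negative of the 10 there, against -0.11 without the covariate. None of the 10 passed in that fit, where 0.0221% of all genes did. The pan-neuronal list itself was lower in bloom: all 9 matched of 10 listed markers had negative log2 changes. SYT1 alone passed (limma, 9.16% of all genes passed), and NEFM was near 0 at -0.039 (SE 0.32, limma adjusted p = 0.938). The summed value of the 9 ran from 2180.5 to 9785 in bloom dolphins, against 7899 to 13050.1 in non-bloom dolphins. It was lowest in bloom 5 (2180.5), bloom 6 (3192) and bloom 2 (5180.5), and bloom 9 had 7178. Abundant markers such as SNAP25 (2203 ± 773 in bloom dolphins, SD) weigh most in this sum, whereas the covariate averages log2 values. None of the 9 was at 0 reads in any library. In bulk cortex fewer neurons and less RNA per neuron cannot be told apart.

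ALDOC, the astrocyte-enriched aldolase, was among the most uneven of the 10 in bloom dolphins and the most even in non-bloom dolphins. It ran from 1002 to 3411 in bloom dolphins with a median of 1842 and an SD of 45.0% of the mean, against 1329 to 1638 in non-bloom dolphins with a median of 1442 and an SD of 6.89% of the mean. Bloom 5, 6 and 9 had 3411, 3391 and 2657, bloom 7 and 2 had 1952 and 1842, and bloom 3, 4, 8 and 1 had 1394, 1390.3, 1247 and 1002. Thus 5 bloom dolphins lay over the highest non-bloom value and 2 under the lowest. The log2 change of ALDOC was 0.36 (SE 0.24, limma adjusted p = 0.276), and -0.017 (SE 0.15, limma adjusted p = 0.954) without bloom 5, 6 and 9. The summed value of the 9 matched of 10 listed astrocyte markers was 6862, 6708, 5226 and 4355 in bloom 9, 5, 6 and 2. It was between 401 and 1602 in the other 5 bloom dolphins, against 323 to 1837.5 in non-bloom dolphins. GFAP alone ran from 241 to 6021 in bloom dolphins, so it weighed heavily in the sum. AQP4 and SLC1A2 each lay over the highest non-bloom value in 1 bloom dolphin. All 9 markers had positive log2 changes and none passed (limma, 9.16% of all genes passed). None of these 9 was at 0 reads in any library. The pan-neuronal covariate gave ALDOC a log2 change of -0.13 (SE 0.19, limma adjusted p = 0.852). With the mean log2 astrocyte marker level as a covariate the log2 change of ALDOC was 0.042 (SE 0.22, limma adjusted p = 0.937). The astrocyte covariate also left smaller changes of ENO2, -0.38 (SE 0.20, limma adjusted p = 0.401), and PFKP, -0.17 (SE 0.17, limma adjusted p = 0.629). None of the 10 enzymes passed in that fit, where 0.103% of all genes did. The part of either cell type in these differences was not tested.

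**Figure D2:**
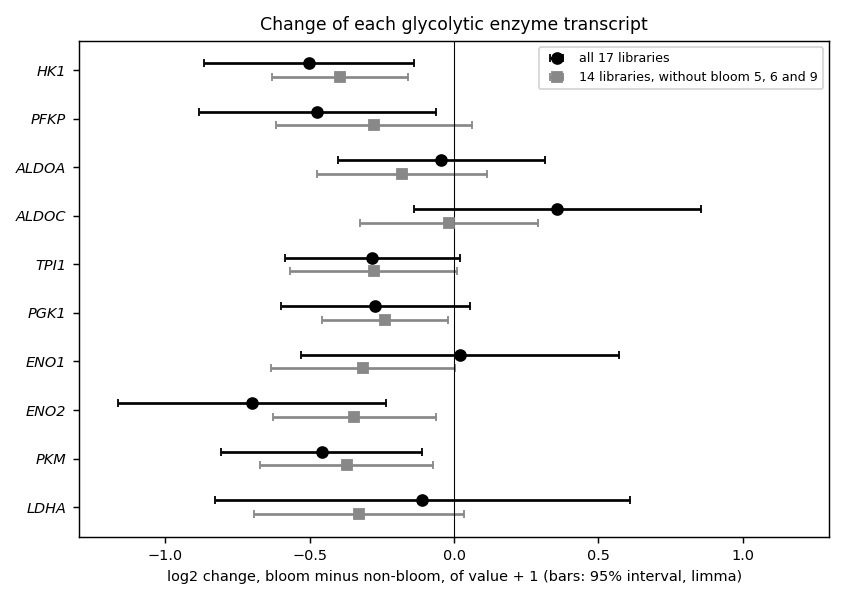
Log2 change of each enzyme (bloom minus non-bloom, of value + 1) with its 95% interval from limma, for all 17 libraries (circles) and for the 14 without bloom 5, 6 and 9 (squares). ENO2 lies at -0.70 and -0.35, and ALDOC at 0.36 and -0.017, while TPI1 lies at -0.28 in both.

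Seen by library, the bloom dolphins fell into unlike profiles of the 10 transcripts. The share of all genes outside the non-bloom range was not computed per library, so the counts here describe the 10 only. Bloom 1, 3 and 8 had all 10 transcripts under the non-bloom median, and bloom 2, 4 and 7 had 9 of them. In bloom 2, 6 transcripts lay under the lowest non-bloom value (HK1, PFKP, ALDOA, TPI1, ENO2 and PKM), the most of any bloom dolphin. Bloom 5 combined 5 transcripts under the non-bloom range (HK1, PFKP, TPI1, ENO2 and PKM) with 3 over it (ALDOC, ENO1 and LDHA). Bloom 6 had 2 under it (PFKP and ENO2) and 4 over it (ALDOA, ALDOC, ENO1 and LDHA), and only 4 of its 10 transcripts lay under the non-bloom median. Bloom 9 had 5 under it (HK1, PGK1, ENO2, PKM and LDHA) and only ALDOC over it. Bloom 5, 6 and 9 therefore shared low ENO2 and high ALDOC but not ENO1 and LDHA, which were high in bloom 5 and 6 and, in bloom 9, were at 637 for ENO1 and 89.2 for LDHA. Among non-bloom dolphins the number under the group's own median ran from 0 in non-bloom 1 to 9 in non-bloom 5.

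**Figure D3:**
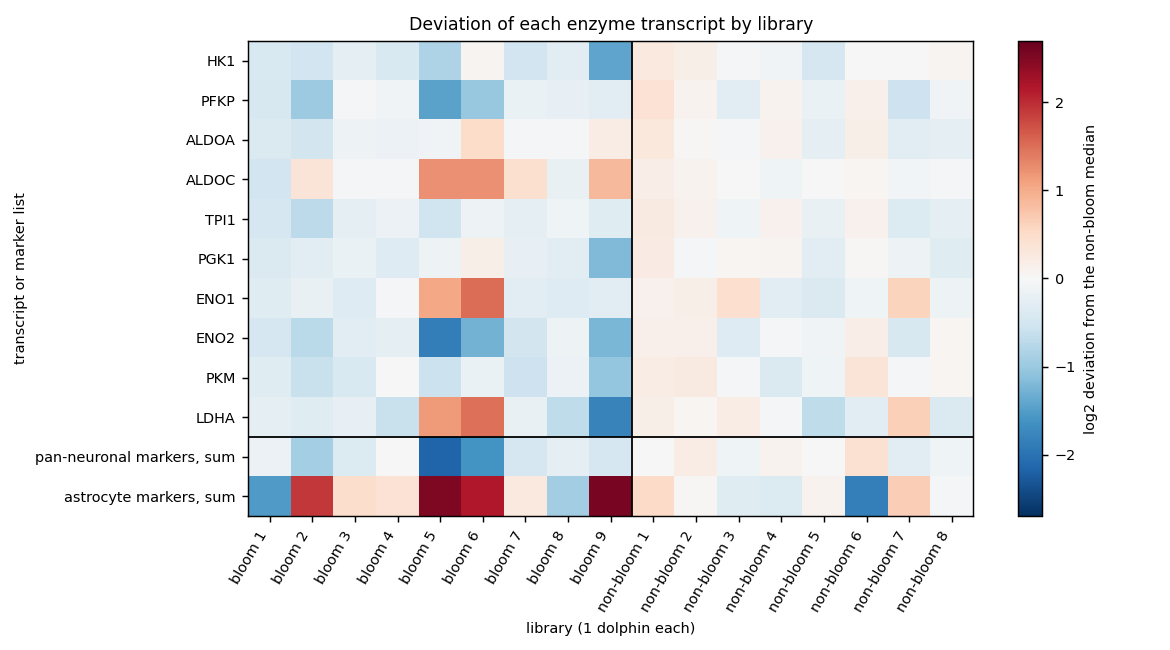
Log2 deviation of each enzyme (rows) from its non-bloom median in each library (columns, bloom left), with the summed pan-neuronal and astrocyte markers below the line; red is higher and blue lower. ENO2 is lowest in bloom 5 at -1.87, and ENO1 and LDHA are high in bloom 5 and 6.

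Isozyme pairs were compared as log2 ratios of value + 1 within a library. The scaling of the library nearly cancels where both values are far above 1, but not for a rare gene such as HK2. The exact permutation test, two-sided and enumerating all 24310 splits of the dolphins, was applied to 6 ratios, with Benjamini-Hochberg adjustment over those 6. A ratio shows unequal change and not which gene differed. ENO2 to ALDOC, neuronal enolase over astrocyte-enriched aldolase, had a mean of -1.37 ± 1.19 in bloom (SD, n = 9) and -0.31 ± 0.19 in non-bloom dolphins (SD, n = 8). The difference was -1.06 (exact permutation p = 0.0211, adjusted p = 0.126), with 5 of 9 bloom dolphins under the lowest non-bloom ratio. It reached an adjusted p of 0.0476 without bloom 1 and without bloom 8 (exact permutation), and without bloom 5, 6 and 9 it was -0.33 (exact permutation p = 0.121, adjusted p = 0.679). ALDOC to ALDOA, the aldolase pair, averaged -0.16 ± 0.51 in bloom and -0.56 ± 0.18 in non-bloom dolphins, a difference of 0.40 (exact permutation p = 0.0480, adjusted p = 0.144), or 0.16 without bloom 5, 6 and 9 (exact permutation p = 0.331, adjusted p = 0.679). ENO2 to ENO1, the enolase pair, averaged -0.20 ± 1.19 in bloom and 0.52 ± 0.52 in non-bloom dolphins, a difference of -0.72 (exact permutation p = 0.156, adjusted p = 0.233). Without bloom 5, 6 and 9 the enolase difference was -0.029 (exact permutation p = 0.905). None of the 6 ratios passed with all libraries.

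The remaining pairs set a member against an isozyme outside the 10. LDHA to LDHB, where LDHB encodes the heart-type subunit, averaged -1.71 ± 0.91 in bloom and -1.69 ± 0.49 in non-bloom dolphins, a difference of -0.019 (exact permutation p = 0.958). LDHB itself varied little, at 924 ± 118 in bloom and 987 ± 140 in non-bloom dolphins. PFKP to PFKM, where PFKM encodes the muscle-type phosphofructokinase, averaged -1.31 ± 0.57 in bloom and -1.27 ± 0.25 in non-bloom dolphins, a difference of -0.036 (exact permutation p = 0.871). HK1 to HK2, where HK2 encodes the inducible hexokinase, averaged 6.83 ± 1.44 in bloom and 7.89 ± 1.41 in non-bloom dolphins, a difference of -1.06 (exact permutation p = 0.147, adjusted p = 0.233). HK2 was rare, with 40.0 in bloom 6 and 0 to 7.24 in the other bloom dolphins, against 0.238 to 14.5 in non-bloom dolphins. Bloom 9 had 0 reads of HK2, so its ratio rests on the pseudocount of 1. The non-bloom median of HK2 was only 1.32 and its lowest non-bloom value 0.238. Ratios of other libraries with so little HK2 thus depend on the pseudocount as well. The highest HK2 of each season was in a dolphin with high ENO1 and LDHA, bloom 6 and non-bloom 7.

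**Figure D4:**
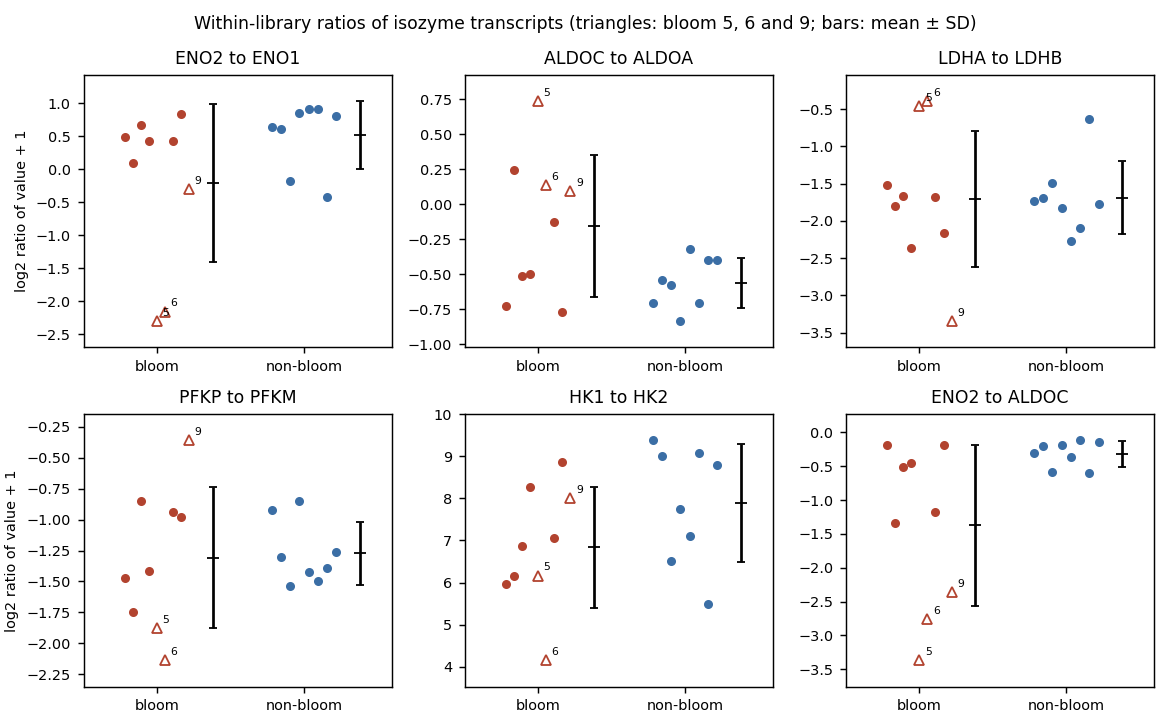
Log2 ratios of isozyme transcripts (of value + 1) within each library, 1 point per dolphin, bloom left and non-bloom right; open triangles are bloom 5, 6 and 9, and bars give the mean ± SD. ENO2 to ALDOC is lowest in bloom 5, 6 and 9, and LDHA to LDHB is high in bloom 5 and 6 and low in bloom 9.

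Around the 10 enzymes, other glycolytic isozymes, transporters and side pathways gave calls in both directions. Of 12 tested among 16 other glycolytic enzymes, HKDC1 rose and none fell (limma). HKDC1, a further hexokinase gene placed 27630 bases from HK1 on the same scaffold, was at 7.47 ± 2.18 in bloom (SD, n = 9) and 3.37 ± 0.796 in non-bloom dolphins (SD, n = 8). In 8 of 9 bloom dolphins it lay over the highest non-bloom value of 4.20, and the exception was bloom 9 with 4 reads. Its log2 change was 0.91 (SE 0.21, limma adjusted p = 0.0268), and 1.10 (SE 0.15, limma adjusted p = 0.00243) without bloom 5, 6 and 9. It passed in 11 of 17 fits with 1 library left out. The sources used here do not say how reads shared between HKDC1 and its paralog HK1 were counted. GPI, GAPDH and PGAM1, which complete the pathway, did not pass. GPI, which converts glucose 6-phosphate to fructose 6-phosphate, was at 668 ± 195 in bloom and 777 ± 111 in non-bloom dolphins. GAPDH, the NADH-making step, was at 4076 ± 1249 in bloom and 3571 ± 558 in non-bloom dolphins, with 5216, 6184 and 5443 in bloom 5, 6 and 9. PGAM1, phosphoglycerate mutase, was at 275 ± 76.2 in bloom and 316 ± 50.8 in non-bloom dolphins.

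Of 9 tested genes in a list of glucose and lactate transporters, their relatives and partners, EMB and SLC2A13 fell and none rose. EMB, embigin, a partner of monocarboxylate transporters, was at 1.32 ± 1.31 in bloom and 5.43 ± 4.54 in non-bloom dolphins (log2 change -1.41, SE 0.35, limma adjusted p = 0.0321). EMB was rare in bloom dolphins, with a median of 1.14 and a lowest value of 0. SLC2A13, a proton-coupled inositol transporter of the glucose transporter family, was at 18.5 ± 14.3 in bloom and 49.0 ± 15.1 in non-bloom dolphins (log2 change -1.86, SE 0.51, limma adjusted p = 0.0390). Its lowest bloom value was 1.14, and its fewest reads in any library were 2. Of 12 tested genes that set glycolytic flux, PDP2, a phosphatase that activates pyruvate dehydrogenase, fell to 14.2 ± 5.46 in bloom against 25.3 ± 5.51 in non-bloom dolphins (limma adjusted p = 0.0296), and none rose. Of 8 genes for pyruvate entry into mitochondria, PDHA1 and DLD, subunits of the pyruvate dehydrogenase complex, fell by 0.42 and 0.39 on the log2 scale (limma adjusted p = 0.0492 and 0.0491). Of 10 genes of the hydrogen shuttles, SLC25A12 and GOT2 of the malate-aspartate shuttle fell by 1.11 and 1.04 on the log2 scale, and SLC25A13, the other aspartate-glutamate carrier, rose by 0.86 (limma adjusted p = 0.0341, 0.0366 and 0.0355). SLC25A12 was at 145 ± 72.0 in bloom and 277 ± 42.0 in non-bloom dolphins, and SLC25A13 at 42.2 ± 13.1 in bloom and 22.9 ± 8.02 in non-bloom dolphins. Of 17 glycogen genes, PHKG1, a catalytic subunit of phosphorylase kinase, rose by 0.90 on the log2 scale (limma adjusted p = 0.0359) and none fell. Of 8 genes of the pentose phosphate pathway none passed by limma or by edgeR, and 0 were at an unadjusted p under 0.05 by limma and 1 by edgeR. Its smallest p-values were those of PGLS and PGD, with log2 changes of 0.36 (SE 0.18, limma adjusted p = 0.153) and -0.23 (SE 0.13, limma adjusted p = 0.213). With 1 library left out these calls held in 8 of 17 fits for EMB, 6 for SLC2A13, 11 for PDP2, 3 each for PDHA1 and DLD, 7 for SLC25A12, 6 for GOT2, 8 for SLC25A13 and 6 for PHKG1. Without bloom 5, 6 and 9, SLC2A13 and SLC25A12 still passed (limma adjusted p = 0.0496 and 0.0435), and the other 7 did not. edgeR called 0 of the 8 pyruvate entry genes (4 at an unadjusted p under 0.05) and 1 of the 9 genes of the transporter list. Each list held only 8 to 17 tested genes, and 9.16% of all genes passed.

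**Figure D5:**
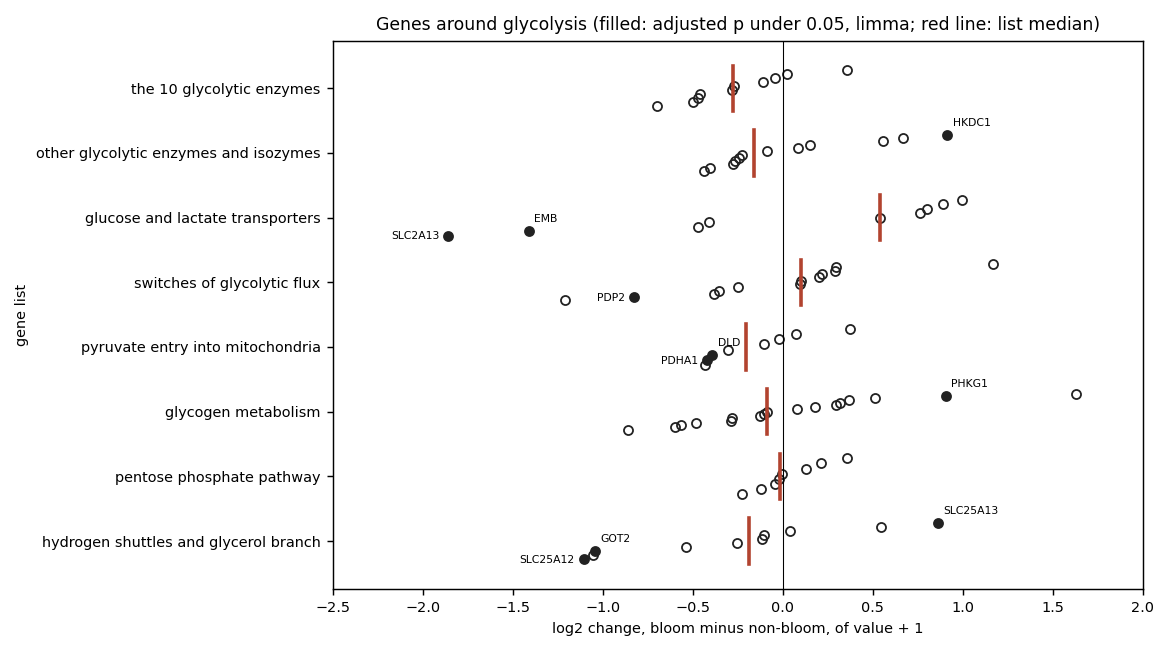
Log2 change (bloom minus non-bloom, of value + 1) of each tested gene in the 10 enzymes and 7 further lists; filled points passed at an adjusted p under 0.05 (limma) and are named, and red lines mark list medians. None of the 10 enzymes is filled, and HKDC1 is the filled point among the other glycolytic enzymes.

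The genes whose profiles were most like those of ENO2 and ALDOC were sought among 10370 tested genes with a symbol and a mean of at least 5. Likeness was the mean absolute difference of log2 deviations from the gene's own mean over the 17 libraries. For ENO2, whose own mean absolute deviation was 0.42, the nearest were TM2D2 at 0.091, HARS1, a histidyl-tRNA synthetase, at 0.11, ANXA6, an annexin, at 0.11, and PRPS1, a phosphoribosyl pyrophosphate synthetase, at 0.12. HARS1 was at 82.9 ± 29.0 in bloom and 125 ± 16.1 in non-bloom dolphins. Over the 14 libraries without bloom 5, 6 and 9 HARS1 and PRPS1 ranked 3 and 5 in likeness to ENO2, and TM2D2 and ANXA6 ranked 26 and 66. For ALDOC, whose own mean absolute deviation was 0.37, the nearest were C21orf33 at 0.12, ECI1, an enoyl-CoA isomerase of mitochondrial fatty acid oxidation, at 0.14, NRDC, nardilysin, at 0.15, and TTC39C at 0.15. They ranked 7, 32, 28 and 204 without those 3 libraries. ECI1 was at 81.8, 78.5 and 57.1 in bloom 5, 6 and 9, against 28.4 ± 3.72 in non-bloom dolphins (SD, n = 8).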

How the data were processed

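Trim Galore 0.6.1 and STAR 2.5.2a are named in the submitters' processing notes. The counting tool, build and annotation were not given in the sources used here. Each library's deposited signal, as the authors made it, holds a normalised value for every gene: 100% of nonzero values were whole multiples of the value of 1 read within 0.01, and they equalled TMM-scaled CPM recomputed from those reads to within 7.51e-07%. A value of 3 reads, the counting floor, was 0.158 to 1.71.

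Genes were kept by filterByExpr (minimum count 10, minimum total 15), leaving 13548. Season was tested by limma-trend on log2(value + 1), Benjamini-Hochberg threshold 0.05 over all genes; 95% intervals are from that fit. Seasons come from the treatment label. Named genes are the 10 enzymes, up to 4 passing members of each further list (otherwise the 2 with the smallest p), GAPDH, GPI, PGAM1, LDHB and the 4 genes nearest ENO2 and ALDOC in profile. The members and lists were chosen with earlier results of these data known. Fits were tested on simulated data. Alternatives covered scaling, pseudocount, filter, edgeR (1169 genes called on the recovered reads), DESeq2, limma-voom, marker and mitochondrial covariates and libraries left out. The software was limma 3.58.1, edgeR 4.0.16 and DESeq2 1.42.0 in R 4.3.3.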

Additional observations from a re-analysis of the deposited data

Results flagged for a closer look

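Of 32 groups of values examined (the 10 enzymes and 6 ratios in each season) Dixon's rule flagged 1, and chance alone flags about 5% of groups. The rule divides the gap between the most extreme dolphin and its neighbour by the range of the group. High values in 2 dolphins can thus mask each other, and ENO1 and LDHA of bloom 5 and 6 were not flagged. The log2 ratio of LDHA to LDHB was -0.63 in non-bloom 7, while the next highest non-bloom dolphin had -1.50. That gap was 0.528 of the range, barely over the critical value of 0.526. Non-bloom 7 also had the highest LDHA (486), ENO1 (1199) and HK2 (14.5) of its season. It had the highest summed neutrophil markers (239) and erythroid markers (876) of its season and the second highest microglial markers (193.7), and their part in the ratio was not tested.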

How the results depend on the processing

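The number of the 10 enzymes that passed was 0 as reported, 1 with relative log expression scaling and with TMM computed without mitochondrial genes (ENO2 in both, with 9.87% and 9.77% of all genes passing), 3 with the mitochondrial read ratio as a covariate (HK1, ENO2 and PKM, with 18.6% of all genes), and 4 by DESeq2 and by limma-voom. With 1 library left out it ran from 0 to 3. It was above 0 without bloom 1 (ENO2), bloom 4 (ENO2 and PKM) and bloom 8 (HK1, ENO2 and PKM), where 21.5%, 17.1% and 19.9% of all genes passed. The number of all genes that passed ran from 61 without non-bloom 2 to 2895 without bloom 1, and was 3 with the pan-neuronal and 14 with the astrocyte covariate. ALDOC turned to -0.13 with the pan-neuronal covariate and -0.017 without bloom 5, 6 and 9. ENO1 turned to -0.23 by limma-voom, -0.58, -0.35 and -0.046 with the pan-neuronal, astrocyte and mitochondrial covariates, and -0.32 without bloom 5, 6 and 9. LDHA turned to 0.16 by edgeR and by DESeq2. GAPDH turned to -0.0030 by limma-voom, -0.11 with the pan-neuronal covariate and -0.11 without bloom 5, 6 and 9. With 1 library left out ALDOA ran from -0.12 to 0.0083, ENO1 from -0.16 to 0.10 and LDHA from -0.32 to 0.096. HK1, PFKP, TPI1, PGK1, ENO2 and PKM were negative in all settings tried. The ratio of PFKP to PFKM turned to 0.038 without bloom 5, 6 and 9. With 1 library left out it ran from -0.15 to 0.067, LDHA to LDHB from -0.18 to 0.19, and ENO2 to ALDOC from -1.21 to -0.81. The cause of these shifts was not tested. Settings for genes outside the 10 were added after the data were seen. Bloom 9 kept 1753299 reads outside the mitochondrial genome, which limits rare genes such as HK2 there. No paired analysis was possible because each dolphin gave 1 library and replicate numbers only name libraries.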

Other observations

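Of 9 tested transporter genes of the glucose and lactate list, SLC2A1 and SLC16A3 were high in bloom 5 and 6, which had high ENO1 and LDHA; they were picked after their values were seen, and others such as SLC2A13 (4.18 and 2.91, against 49.0 ± 15.1 in non-bloom dolphins, SD, n = 8) were low there. SLC2A1, the glucose transporter of the blood-brain barrier and astrocytes, was at 371 in bloom 5, 459 in bloom 6 and 12.6 in bloom 9, and at 71.4 ± 27.3 in non-bloom dolphins (SD, n = 8). SLC16A3, a monocarboxylate transporter that exports lactate, was at 34.6 in bloom 5, 79.0 in bloom 6 and 0.571 (1 read) in bloom 9, and at 4.98 ± 5.37 in non-bloom dolphins (SD, n = 8), with 14.1 in non-bloom 7 and 12.9 in non-bloom 3. Neither passed the seasonal test (limma, log2 change 0.76, SE 0.53, adjusted p = 0.303, and 1.00, SE 0.68, adjusted p = 0.291).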
